A study of Mus musculus with 18 samples.

Results

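Interferon-induced genes and interferon regulatory factors were followed as 1 group of genes in RNAseq of dorsal spinal tissue from mice expressing LacZ, HDAC4 wt or HDAC4 3SA. The members were taken by gene name: the Ifi, Ifit, Ifih and Ifitm genes, the Oas and Gbp families, Irgm1, Irgm2 and Iigp1, Isg15 and Isg20, the interferon regulatory factors (Irf genes), Mx1 and Mx2, and Rsad2, Usp18, Bst2 and Stat2. The rule itself uses no expression value, although it was set with earlier results of these data known. Where a name had several entries, the one with the highest mean level was read. The rule found 51 of the 18444 genes that stand alone at an entry in each of the 3 tables. Ifitm7 lay at places that did not overlap between tables (0.205 to 0.516 FPKM) and was left out of the comparisons, which leaves 50 of 18182 genes. Irf9, Irgm2, Ifi47, Ifi203, Gbp4 and Gbp6 were found at entries shared with another gene.

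The study asked how the location of histone deacetylase 4 (HDAC4), a repressor of transcription that moves between nucleus and cytoplasm, shapes the response of the spinal cord to inflammatory pain. C57BL/6 mice (C57BL/6N in the study's methods), 3 months old by the labels, received rAAV-LacZ (the control vector), rAAV carrying wild-type HDAC4 (HDAC4 wt) or rAAV carrying HDAC4 3SA, a mutant retained in the nucleus, by bilateral injection into the dorsal horn of segments L3 to 5. After at least 3 weeks they received complete Freund's adjuvant (CFA, a killed mycobacterial preparation in oil that inflames the paw) or saline into the hindpaw, and dorsal spinal tissue was taken 24 h later. Each of the 6 groups held 3 mice, 18 in all. Every group, the saline controls included, had therefore undergone spinal surgery and carried a virus. The promoter that drove these transgenes is not given in the sources used here, and tissue without virus was not analysed here.

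Each vector had its own table, with 1 level per gene for saline-treated and 1 for CFA-treated mice. Levels are in FPKM, a unit that counts sequenced fragments per length of exon and per library size, estimated over the 3 mice of a group. The tables give neither single mice nor library depth. No value below is therefore given with an SD, a known precision or a replicate check, and no test over mice was run here. The authors' own comparison of CFA with saline within each vector was not used. Differences are of log2(FPKM + 0.1), which understates the change of genes of low level. Folds of single genes are ratios of the FPKM values themselves. A fold given for a median is that median converted back from the log2 scale, with the 0.1 FPKM still in it. The threshold was a log2 difference beyond 0.5, without a test. It has the size of the study's cut, but that cut is on the plain ratio, so members of low level can pass one and not the other. Vector and table cannot be told apart, so levels set side by side across vectors are a description, and the comparisons of both HDAC4 groups with LacZ share the LacZ saline group. Over 9873 genes of at least 5 FPKM, the saline levels of HDAC4 wt and HDAC4 3SA mice lay at a median log2 difference of 0.03 from LacZ in either case. Hdac4 itself had 7.41 FPKM (saline) and 7.72 FPKM (CFA) with LacZ, 10.1 and 10.8 FPKM with HDAC4 wt, and 8.86 and 8.81 FPKM with HDAC4 3SA, and whether vector transcripts were counted there is not known.

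Interferons are secreted when cells sense viral or microbial nucleic acids. They bind receptors that activate the kinases JAK1 and TYK2, which phosphorylate STAT proteins. With IRF9, STAT2 takes part in a complex that binds interferon-stimulated response elements (ISREs) in the promoters of many antiviral genes, whereas STAT dimers formed after interferon gamma bind gamma-activated sites (GAS). In the spinal cord, microglia are known for strong expression of many of these genes, and neurons, astrocytes, vessels and invading immune cells can express them too.

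The clearest feature of the members was their baseline. After saline, they were far higher in HDAC4 wt and HDAC4 3SA mice than in LacZ mice. After CFA, 18 of the 47 members of sufficient level were above their saline level by more than 0.5 (log2) with LacZ (4.43% of all genes), 17 with HDAC4 wt (4.75%) and 36 with HDAC4 3SA (8.81%). Of the 50 members, 47 had a mean of at least 0.5 FPKM over the 6 groups, and Gbp9, Ifit1bl2 and Oas1h did not. For 12 of the 47, both LacZ values were below 0.5 FPKM, so these reached the mean through the HDAC4 groups, which is why counts over all 50 are given as well. The summed level of the 47 members was 121 FPKM (saline) and 166 FPKM (CFA) with LacZ, 729 and 1012 FPKM with HDAC4 wt, and 523 and 936 FPKM with HDAC4 3SA. In the LacZ saline group 6 members reached 5 FPKM and 22 stayed below 1 FPKM. In the HDAC4 wt and HDAC4 3SA saline groups, 29 and 28 members reached 5 FPKM, and 1 and 2 stayed below 1 FPKM.

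**Figure D1:**
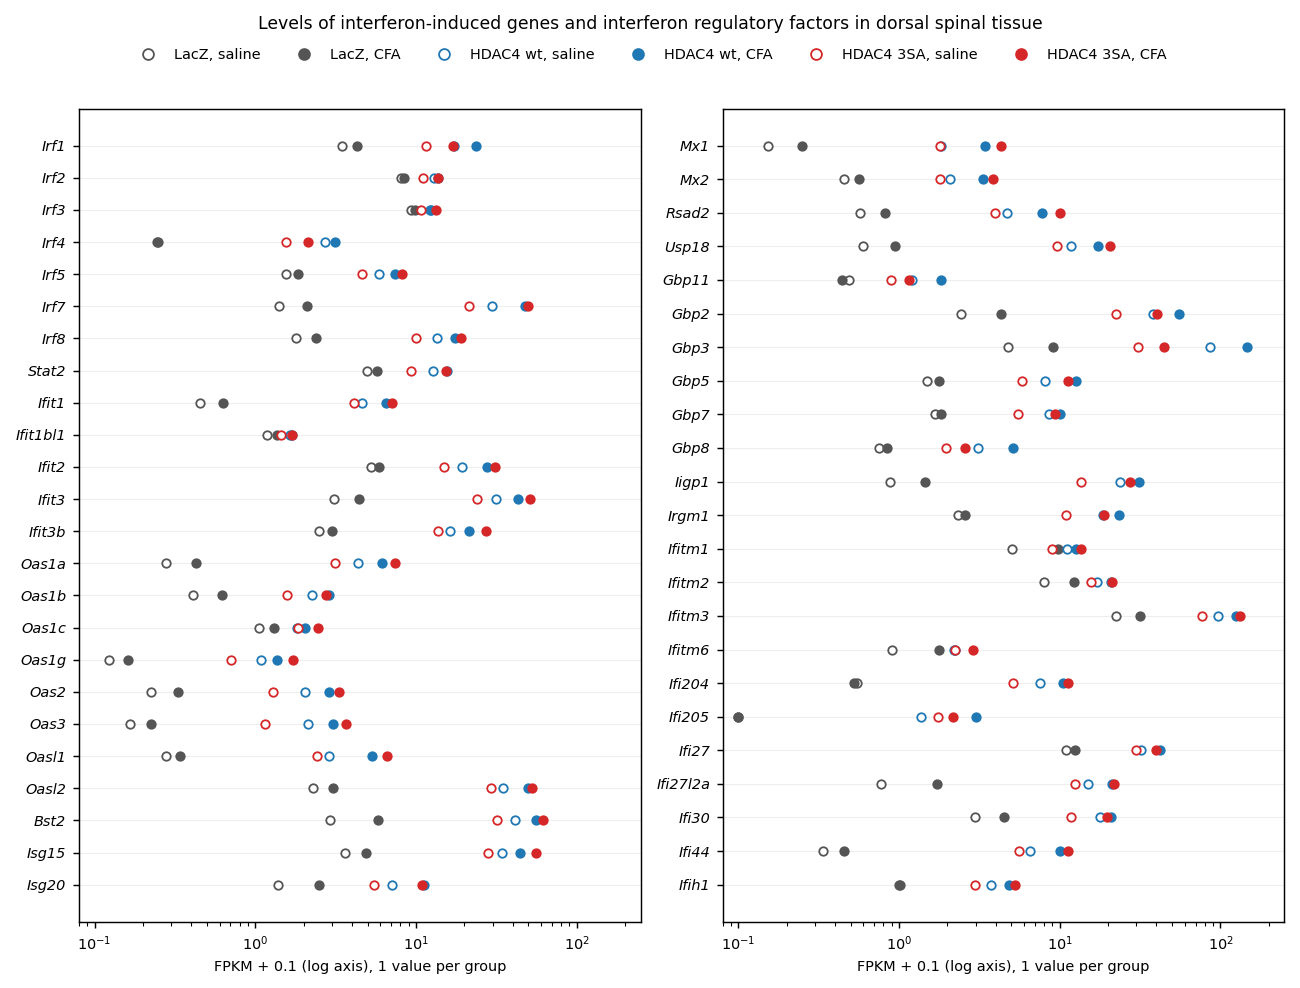
FPKM + 0.1 on a log axis for the 47 members at or above the mean level of 0.5 FPKM, 1 value per group without error bars; open circles are saline and filled circles CFA, grey is LacZ, blue HDAC4 wt and red HDAC4 3SA. Both grey circles lie left of the open blue and red circles for 46 of the 47 members, Ifitm1 being the exception.

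In saline-treated mice, 45 of the 47 members were higher with HDAC4 wt than with LacZ by a log2 difference beyond 0.5, against 15.7% of the 15741 genes of the same mean level, and no member was lower, against 5.48%. The median difference was 2.92, a 7.57-fold level, where all genes had a median of 0.07. Past a difference of 2 lay 34 members, against 3.92% of all genes. Of the 12 members that reached the minimum mean through the HDAC4 groups, all but Gbp11 are among these 34, so this count leans on that minimum. With HDAC4 3SA, 44 members were higher than with LacZ (12.6% of all genes) and none was lower (3.95%). Here the median difference was 2.46, a 5.52-fold level, with 0.05 over all genes, and 25 members were past 2 (2.86% of all genes). Of the same 12 members, all but Gbp11 and Mx2 are among these 25. Over all 50 members, 48 were higher with HDAC4 wt and 46 with HDAC4 3SA. The share of all genes without the minimum is not given here, so these counts have no background beside them.

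The difference was widest for Iigp1 in HDAC4 wt mice (log2 4.75) and narrowest for Irf3 in both (0.39 and 0.19). On plain ratios Oas1g (41.9-fold), Mx1 (32.1-fold) and Oas3 (30.8-fold) exceeded Iigp1 (30.1-fold) in HDAC4 wt mice, from LacZ saline levels below 0.1 FPKM. Besides Irf3, Ifit1bl1 remained within 0.5 of LacZ in both HDAC4 groups and Irf2 in HDAC4 3SA mice. Between the HDAC4 vectors, the saline levels were lower with HDAC4 3SA than with HDAC4 wt by more than 0.5 for 14 members (4.75% of all genes) and higher for none (2.58%), with a median difference of -0.36. Gbp3 is among the 14 only by its entry of higher level. For 44 of the 47 members, saline levels ran in the order LacZ, HDAC4 3SA, HDAC4 wt from low to high, an order found in 37.7% of all genes. The exceptions were Ifi205, Ifitm6 and Oas1c. The LacZ level after CFA still lay below both HDAC4 saline levels for 46 members (51.1% of all genes).

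**Figure D2:**
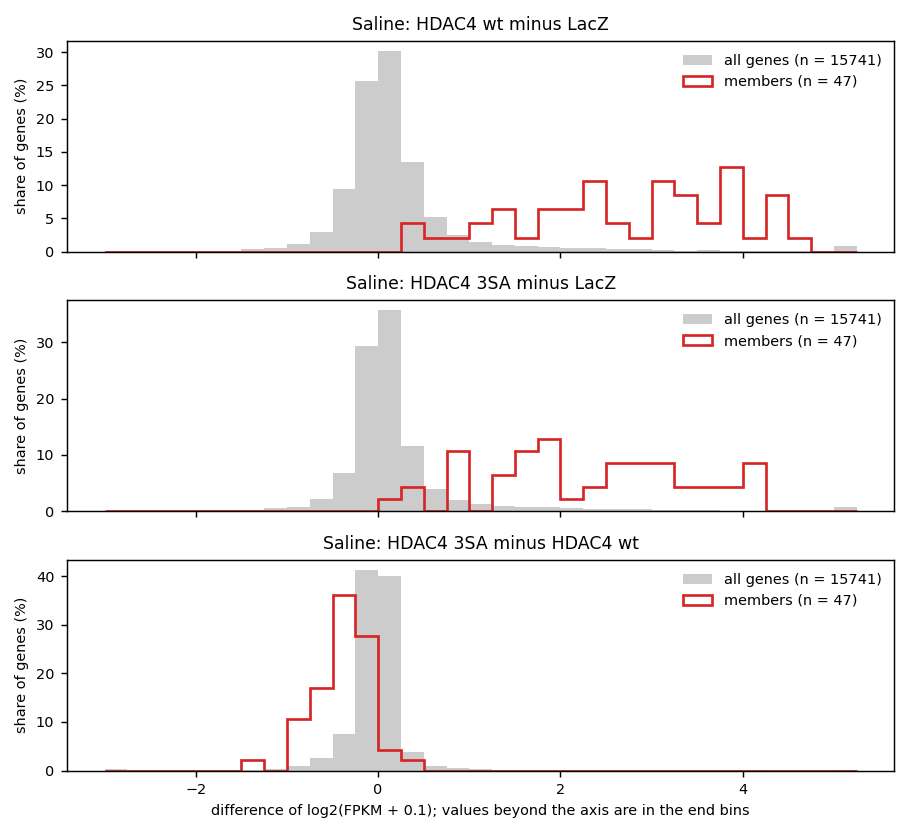
Shares of genes (%) by difference of log2(FPKM + 0.1) between saline groups, for all 15741 genes (grey) and the 47 members (red outline), 1 panel per pair of vectors. The members have medians of 2.92 for HDAC4 wt minus LacZ, 2.46 for HDAC4 3SA minus LacZ and -0.36 for HDAC4 3SA minus HDAC4 wt, whereas all genes centre near 0.

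Marker genes of immune cells moved with these baselines. Of 10 microglial markers, 8 were higher in either HDAC4 saline group than in LacZ, with medians of 1.64 and 1.35, and their summed level was 131 FPKM (saline) and 133 FPKM (CFA) with LacZ, 426 and 497 FPKM with HDAC4 wt, and 354 and 589 FPKM with HDAC4 3SA. T cell and natural killer cell markers summed to 3.22 FPKM in LacZ, 18.7 FPKM in HDAC4 wt and 10.7 FPKM in HDAC4 3SA saline mice (4.35, 28.1 and 20 FPKM after CFA), and 8 of the 8 with a mean of at least 0.5 FPKM were higher in both HDAC4 groups. B and plasma cell markers summed to 2.92, 309 and 199 FPKM after saline and to 5.44, 330 and 269 FPKM after CFA, again with 8 of 8 higher.

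In the HDAC4 groups most of that last sum was Jchain, which joins secreted antibodies, at 262 and 167 FPKM after saline against 0.205 FPKM with LacZ. Macrophage and monocyte markers summed to 37.0, 428 and 315 FPKM after saline and 38.3, 611 and 677 FPKM after CFA, with 7 and 6 of 10 higher and medians of 1.18 and 0.90. Lyz2 made up most of the sum, at 20.6, 322 and 213 FPKM after saline. Neuronal markers summed to 2523, 1673 and 1841 FPKM after saline, with medians of -0.40 and -0.32 for HDAC4 wt and HDAC4 3SA against LacZ, and 10 of 10 were above 0 FPKM in every group, as were the 9 dorsal horn markers. Of the 6 neutrophil markers with a mean of at least 0.5 FPKM, 6 were higher than in LacZ in both HDAC4 saline groups, with medians of 1.78 (HDAC4 wt) and 2.35 (HDAC4 3SA), and 5 of 6 were higher with HDAC4 3SA than with HDAC4 wt, at a median of 0.54. Their order between the HDAC4 groups was thus the reverse of that of the members' medians. Among the immune lists, only Fcgr1 was listed at 0, in the LacZ CFA group, beside 8.84 FPKM in the LacZ saline group, and an exact 0 in such tables can be a failed estimate. In bulk tissue, more cells of a type and more RNA of a gene per cell cannot be told apart, and the part of these cells in the member levels was not tested.

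**Figure D3:**
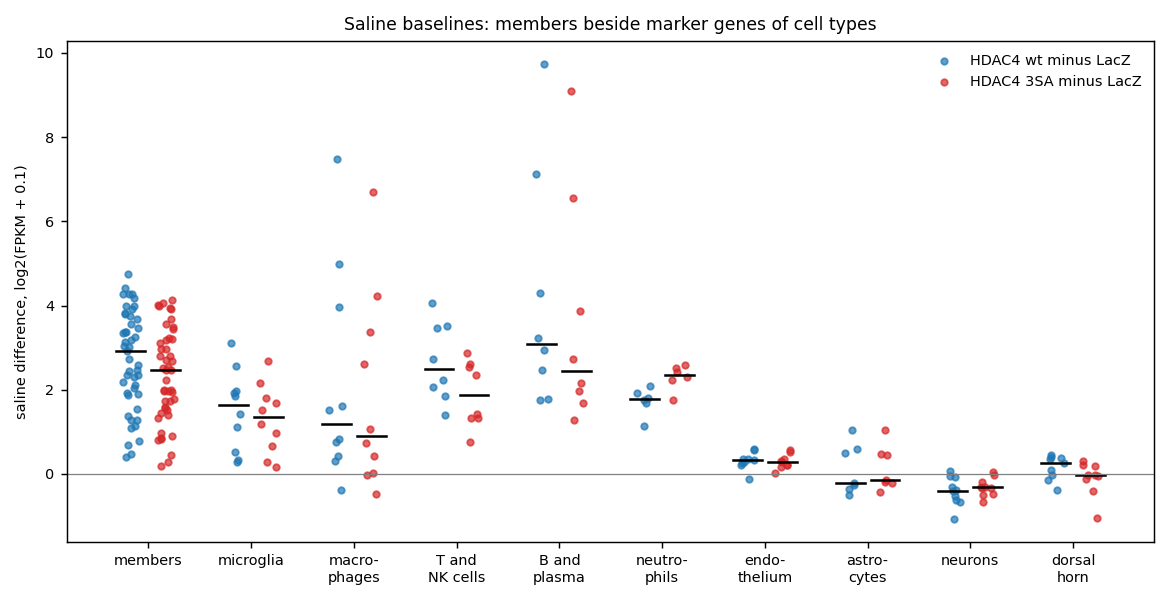
Difference of log2(FPKM + 0.1) from LacZ in saline-treated mice, 1 point per gene with a mean of at least 0.5 FPKM and a black line at the median, for the 47 members and for marker genes of cell types (blue HDAC4 wt, red HDAC4 3SA). Medians for HDAC4 wt were 2.92 for members, 1.64 for microglia, 2.48 for T and natural killer cells and 3.09 for B and plasma cells, and -0.40 for neurons.

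CFA over saline gave a second pattern. In LacZ mice 18 of the 47 members were higher after CFA by more than 0.5 (4.43% of all genes) and none was lower (2.24%), with a median change of 0.42. In HDAC4 wt mice 17 were higher (4.75%) and none lower (3.06%), with a median of 0.44. In HDAC4 3SA mice 36 were higher (8.81%) and none lower (3.23%), with a median of 0.82, a 1.77-fold level. Over all 50 members the counts were 19, 18 and 38, for which no share of all genes without the minimum is given here. On plain FPKM ratios, with nothing added, 22 of 46 members were higher with LacZ (5.06% of all genes), 18 of 47 with HDAC4 wt (4.94%) and 36 of 47 with HDAC4 3SA (9.23%). With 1 FPKM added, they were 8 (1.78% of all genes), 14 (2.9%) and 36 (6.05%), and the LacZ median was 0.17. The order of LacZ and HDAC4 wt therefore turned with the amount added, whereas HDAC4 3SA had the highest count each time. Beyond a log2 difference of 1, the counts were 1 with LacZ (1.08% of all genes), 1 with HDAC4 wt (1.59%) and 15 with HDAC4 3SA (2.53%). The median of all genes was 0.01, 0.00 and 0.01 in the respective vectors.

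The 7 members past the threshold in all vectors, as were 0.597% of all genes, were Gbp2, Gbp3, Irf7, Isg20, Mx1, Rsad2 and Usp18. For Gbp3 this holds only for the entry of higher level. A set of 13 was past it with HDAC4 3SA alone (5.58% of all genes), namely Gbp7, Ifi204, Ifih1, Ifit1, Ifit3b, Ifitm3, Irf1, Irf5, Irf8, Irgm1, Isg15, Oas1g and Stat2, although being past it in 1 table and not in another was not itself tested. On plain ratios Ifit1 and Oas1g of this set also passed with LacZ, at 1.5-fold and 2.63-fold, and Ifi44, Oas2 and Oas3 passed in all vectors. Ifi27, Ifit1bl1, Irf2, Irf3, Irf4 and Oas1c were past it in none. The change was larger with HDAC4 3SA than with HDAC4 wt for 43 members (52.1% of all genes), the others being Gbp3, Gbp8, Gbp11 and Ifi205. It was larger with HDAC4 3SA than with LacZ for 41 members (51.0% of all genes), and with HDAC4 wt than with LacZ for 25 (48.6%). The HDAC4 3SA saline values enter both this change and the baseline difference from HDAC4 wt. After CFA, levels with HDAC4 3SA and HDAC4 wt differed by a median of 0.09, and 31 of 47 members were the higher with HDAC4 3SA (50.8% of all genes). Microglial markers had medians of 0.04, 0.21 and 0.62 for CFA over saline in LacZ, HDAC4 wt and HDAC4 3SA mice, with 0, 0 and 6 of 10 higher. T and natural killer cell markers had medians of 0.33, 0.52 and 0.97, with 3, 4 and 8 of 8 higher, and B and plasma cell markers had 0.57, 0.15 and 0.37, with 4, 0 and 1 of 8 higher. Macrophage and monocyte markers had medians of 0.40, 0.04 and 0.11, with 3, 1 and 4 of 10 higher and 1 lower with LacZ, which was Fcgr1, listed at 0 after CFA. Lyz2 changed by 0.44, 0.45 and 1.36. Neuronal markers had medians of -0.06, -0.16 and -0.34, with 1 of 10 lower with HDAC4 3SA and none in the other vectors. Dorsal horn markers had medians of 0.15, -0.32 and -0.32, with 1 of 9 higher and 3 lower with HDAC4 3SA and none past the threshold in the other vectors. The part of these cells in the change was not tested.

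**Figure D4:**
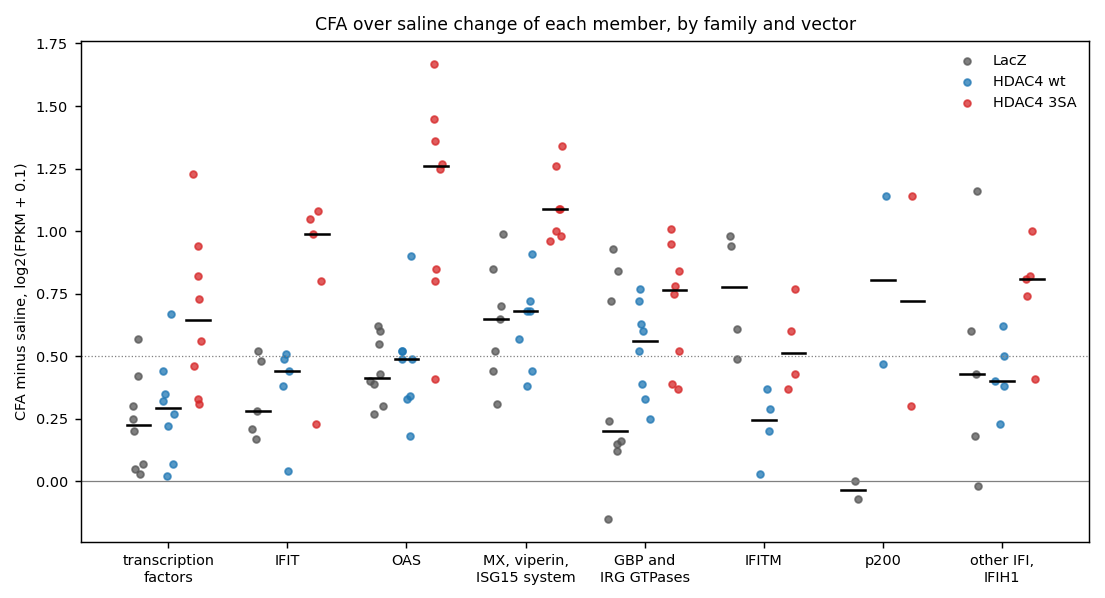
CFA minus saline difference of log2(FPKM + 0.1) for each of the 47 members, by family and vector (grey LacZ, blue HDAC4 wt, red HDAC4 3SA), with black lines at family medians and a dotted line at 0.5. Medians with HDAC4 3SA are the highest of the 3 vectors except in the IFITM family, where LacZ has 0.78, and in the p200 family of 2 members.

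Among the transcription factors, Irf7 amplifies type I interferon production and lies at chr7:141263101-141266481 (GRCm38, a protein-coding gene). Irf7 had 1.31 FPKM (saline) and 1.99 FPKM (CFA) with LacZ, 29.8 and 47.5 FPKM with HDAC4 wt, and 21.3 and 50 FPKM with HDAC4 3SA. Relative to LacZ, its saline level was 22.8-fold in HDAC4 wt and 16.3-fold in HDAC4 3SA mice, and its CFA changes were 0.57, 0.67 and 1.23 on the log2 scale for LacZ, HDAC4 wt and HDAC4 3SA. Both LacZ values lay below all 4 values of the HDAC4 vectors. Irf8, a factor of the myeloid lineage, had 1.7 FPKM (saline) and 2.3 FPKM (CFA) with LacZ, 13.5 and 17.3 FPKM with HDAC4 wt, and 9.85 and 19 FPKM with HDAC4 3SA. Irf1, which interferon gamma induces strongly, had 3.38 FPKM (saline) and 4.19 FPKM (CFA) with LacZ, 17.1 and 23.4 FPKM with HDAC4 wt, and 11.4 and 16.8 FPKM with HDAC4 3SA. Both were higher in the HDAC4 groups at baseline, and after CFA only HDAC4 3SA mice passed 0.5, with 0.94 for Irf8 and 0.56 for Irf1.

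Irf5, which acts downstream of Toll-like receptors, had 1.46 FPKM (saline) and 1.75 FPKM (CFA) with LacZ, 5.81 and 7.26 FPKM with HDAC4 wt, and 4.54 and 8.11 FPKM with HDAC4 3SA. Stat2, a subunit of the ISRE-binding complex, had 4.86 FPKM (saline) and 5.6 FPKM (CFA) with LacZ, 12.7 and 15.4 FPKM with HDAC4 wt, and 9.22 and 15.3 FPKM with HDAC4 3SA. Their saline levels ran from LacZ through HDAC4 3SA to HDAC4 wt, and their CFA changes were 0.82 and 0.73 in HDAC4 3SA mice and at most 0.32 in the other vectors. Irf4, known from lymphocyte and plasma cell differentiation, had 0.144 FPKM (saline) and 0.149 FPKM (CFA) with LacZ, 2.6 and 3.04 FPKM with HDAC4 wt, and 1.45 and 2.03 FPKM with HDAC4 3SA. It moved at baseline, 18.1-fold in HDAC4 wt and 10.1-fold in HDAC4 3SA mice, but was within 0.5 after CFA in each vector. Irf3, a latent factor that is activated by phosphorylation rather than by induction, had 9.25 FPKM (saline) and 9.7 FPKM (CFA) with LacZ, 12.2 and 12.3 FPKM with HDAC4 wt, and 10.6 and 13.2 FPKM with HDAC4 3SA. Irf2, which competes with IRF1 for its sites, had 8 FPKM (saline) and 8.3 FPKM (CFA) with LacZ, 12.9 and 13.6 FPKM with HDAC4 wt, and 10.9 and 13.7 FPKM with HDAC4 3SA. These were the flattest of the 8 factors, as their saline folds ran from 1.14 to 1.61. As a family the factors had median baseline differences of 2.12 and 1.65 and median CFA changes of 0.22, 0.30 and 0.64 in the order LacZ, HDAC4 wt, HDAC4 3SA.

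The IFIT proteins bind foreign RNA and block its translation. Ifit3 had 2.97 FPKM (saline) and 4.3 FPKM (CFA) with LacZ, 31.5 and 42.8 FPKM with HDAC4 wt, and 24 and 50.9 FPKM with HDAC4 3SA. Its near copy Ifit3b had 2.39 FPKM (saline) and 2.92 FPKM (CFA) with LacZ, 16.3 and 21.3 FPKM with HDAC4 wt, and 13.6 and 27.2 FPKM with HDAC4 3SA. Of the 50-base windows of the Ifit3 transcripts, 51.2% also occur in another gene, most often Ifit3b, so the split of reads between these genes is uncertain. Ifit2 had 5.14 FPKM (saline) and 5.79 FPKM (CFA) with LacZ, 19.3 and 27.6 FPKM with HDAC4 wt, and 14.9 and 30.9 FPKM with HDAC4 3SA, and was the highest of the family in LacZ mice. Ifit1 had 0.351 FPKM (saline) and 0.527 FPKM (CFA) with LacZ, 4.54 and 6.4 FPKM with HDAC4 wt, and 3.99 and 7.04 FPKM with HDAC4 3SA. Over saline, the CFA levels of these 4 genes with HDAC4 3SA were 2.12-fold for Ifit3, 2-fold for Ifit3b, 2.08-fold for Ifit2 and 1.77-fold for Ifit1, and at most 1.5-fold in the other vectors. Ifit1bl1 stayed between 1.09 and 1.60 FPKM throughout.

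The OAS enzymes make 2'-5' oligoadenylates that activate RNase L, and the OASL proteins are their relatives. Their median CFA change with HDAC4 3SA was 1.26 against 0.41 with LacZ and 0.49 with HDAC4 wt, and 7 of 8 members passed 0.5. On plain ratios the medians were 1.34, 0.81 and 0.50 in the same order, so the LacZ value rests on the 0.1 FPKM added to low levels. Oas3 (chr5:120753098-120777659) had 0.0659 FPKM (saline) and 0.124 FPKM (CFA) with LacZ, 2.03 and 2.96 FPKM with HDAC4 wt, and 1.05 and 3.55 FPKM with HDAC4 3SA, and its change of 1.67 with HDAC4 3SA was the largest of the 47. Its HDAC4 3SA baseline was 0.516 of that of HDAC4 wt. Oasl1 had 0.18 FPKM (saline) and 0.238 FPKM (CFA) with LacZ, 2.76 and 5.23 FPKM with HDAC4 wt, and 2.32 and 6.52 FPKM with HDAC4 3SA. Oas2 had 0.125 FPKM (saline) and 0.23 FPKM (CFA) with LacZ, 1.94 and 2.76 FPKM with HDAC4 wt, and 1.19 and 3.22 FPKM with HDAC4 3SA. Both LacZ values of these genes were below 0.5 FPKM, and their changes with HDAC4 3SA were 1.45 and 1.36.

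Oas1a had 0.177 FPKM (saline) and 0.326 FPKM (CFA) with LacZ, 4.28 and 6.06 FPKM with HDAC4 wt, and 3.02 and 7.32 FPKM with HDAC4 3SA. It shares 57.6% of its 50-base windows with other genes, most often Oas1g, which had 0.0234 FPKM (saline) and 0.0614 FPKM (CFA) with LacZ, 0.979 and 1.26 FPKM with HDAC4 wt, and 0.61 and 1.62 FPKM with HDAC4 3SA. The most abundant of the family was Oasl2, with 2.2 FPKM (saline) and 2.93 FPKM (CFA) with LacZ, 34.5 and 49.5 FPKM with HDAC4 wt, and 29.2 and 52.9 FPKM with HDAC4 3SA. Its changes were 0.40, 0.52 and 0.85, past the threshold in both HDAC4 vectors. Oas1b had 0.312 FPKM (saline) and 0.525 FPKM (CFA) with LacZ, 2.17 and 2.77 FPKM with HDAC4 wt, and 1.48 and 2.65 FPKM with HDAC4 3SA. Oas1a, Oas1b and Oas2 passed 0.5 with LacZ and with HDAC4 3SA. Oas1c, between 0.957 and 2.35 FPKM, was past it in none.

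Another family held the MX genes, viperin and the ISG15 system. All 7 of its members passed the threshold with HDAC4 3SA, and 5 passed it with each of the other vectors. Isg15 (chr4:156199432-156200950), a ubiquitin-like modifier, had 3.51 FPKM (saline) and 4.79 FPKM (CFA) with LacZ, 34.2 and 44.6 FPKM with HDAC4 wt, and 28 and 56 FPKM with HDAC4 3SA. Usp18, which removes ISG15 and dampens receptor signalling, had 0.5 FPKM (saline) and 0.843 FPKM (CFA) with LacZ, 11.6 and 17.3 FPKM with HDAC4 wt, and 9.52 and 20.4 FPKM with HDAC4 3SA. Both had a level in LacZ mice below every HDAC4 value, with saline folds of 9.74-fold in HDAC4 wt and 7.97-fold in HDAC4 3SA mice for Isg15 and 23.1-fold in HDAC4 wt and 19-fold in HDAC4 3SA mice for Usp18. Bst2, or tetherin, which holds budding virions at the membrane, had 2.83 FPKM (saline) and 5.71 FPKM (CFA) with LacZ, 41.4 and 56 FPKM with HDAC4 wt, and 31.7 and 61.6 FPKM with HDAC4 3SA. Rsad2, which encodes viperin, had 0.474 FPKM (saline) and 0.721 FPKM (CFA) with LacZ, 4.59 and 7.63 FPKM with HDAC4 wt, and 3.87 and 9.92 FPKM with HDAC4 3SA. The Rsad2 changes after CFA were 0.52, 0.72 and 1.34. For both genes, LacZ levels after CFA lay below the HDAC4 saline levels. Isg20, an exonuclease, had 1.29 FPKM (saline) and 2.4 FPKM (CFA) with LacZ, 6.98 and 11.2 FPKM with HDAC4 wt, and 5.4 and 10.8 FPKM with HDAC4 3SA. Mx1 had 0.0538 FPKM (saline) and 0.15 FPKM (CFA) with LacZ, 1.73 and 3.33 FPKM with HDAC4 wt, and 1.7 and 4.23 FPKM with HDAC4 3SA. Mx2 is annotated as a polymorphic pseudogene, as are Oas1b and Gbp11. It had 0.357 FPKM (saline) and 0.466 FPKM (CFA) with LacZ, 1.99 and 3.25 FPKM with HDAC4 wt, and 1.71 and 3.76 FPKM with HDAC4 3SA. The LacZ values of Mx1 were so low that its 32.1-fold and 31.7-fold baselines rest on 0.0538 FPKM, and on the log2 scale with 0.1 FPKM added its CFA changes were 0.70, 0.91 and 1.26.

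Guanylate-binding proteins and immunity-related GTPases attack vacuoles that hold intracellular pathogens, and interferon gamma is a strong inducer of many of them. By family median (-0.71) they showed the widest gap between the HDAC4 vectors at baseline. With HDAC4 3SA, 6 of 8 members were lower than with HDAC4 wt by more than 0.5. The 6 include Gbp3 and Gbp8, whose entries lie in runs of loci mostly of the opposite strand. The other Gbp3 entry had saline levels of 21.3 FPKM with HDAC4 wt and 15.3 FPKM with HDAC4 3SA, a difference within 0.5. Gbp2 (chr3:142620609-142638011) had 2.32 FPKM (saline) and 4.22 FPKM (CFA) with LacZ, 38.1 and 54.9 FPKM with HDAC4 wt, and 22.4 and 40 FPKM with HDAC4 3SA. Iigp1 had 0.783 FPKM (saline) and 1.35 FPKM (CFA) with LacZ, 23.6 and 31 FPKM with HDAC4 wt, and 13.4 and 27.1 FPKM with HDAC4 3SA. Irgm1, which regulates the other GTPases of its family, had 2.22 FPKM (saline) and 2.47 FPKM (CFA) with LacZ, 18.6 and 23.3 FPKM with HDAC4 wt, and 10.8 and 18.7 FPKM with HDAC4 3SA. In all 3 genes the HDAC4 3SA baseline was below 0.6 of the HDAC4 wt baseline, at 0.586, 0.569 and 0.582. Gbp5 had 1.39 FPKM (saline) and 1.67 FPKM (CFA) with LacZ, 8.04 and 12.5 FPKM with HDAC4 wt, and 5.74 and 11.2 FPKM with HDAC4 3SA. Gbp7 had 1.58 FPKM (saline) and 1.73 FPKM (CFA) with LacZ, 8.42 and 10 FPKM with HDAC4 wt, and 5.43 and 9.22 FPKM with HDAC4 3SA. The CFA changes of Gbp5 were 0.24, 0.63 and 0.95 and those of Gbp7 0.12, 0.25 and 0.75, highest with HDAC4 3SA for both.

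Gbp3 had 4.64 FPKM (saline) and 8.94 FPKM (CFA) with LacZ, 86.1 and 147 FPKM with HDAC4 wt, and 30.8 and 44.3 FPKM with HDAC4 3SA, with CFA changes of 0.93, 0.77 and 0.52. This entry lies in a run of loci that are mostly of the opposite strand to Gbp3, in libraries that kept strand. The other Gbp3 entry, at the same place (chr3:142560026-142573217), had 2.13 and 2.83 FPKM with LacZ, 21.3 and 27.5 FPKM with HDAC4 wt, and 15.3 and 23.5 FPKM with HDAC4 3SA. The changes of that entry were 0.39, 0.37 and 0.61, so it was past 0.5 with HDAC4 3SA alone and the order of the vectors turned. At baseline both entries were higher with the HDAC4 vectors, and the strand from which either was read was not tested. Gbp8 had 0.651 FPKM (saline) and 0.74 FPKM (CFA) with LacZ, 3 and 5.02 FPKM with HDAC4 wt, and 1.87 and 2.48 FPKM with HDAC4 3SA. Its entry was also in such a run and covered 1.77% of the exon bases of the gene. It lies at the same place (chr5:105076462-105139586) as an entry of Gbp4 and Gbp9, so whether its values are those of Gbp8 is not known. Gbp11 had 0.391 FPKM (saline) and 0.344 FPKM (CFA) with LacZ, 1.1 and 1.72 FPKM with HDAC4 wt, and 0.792 and 1.05 FPKM with HDAC4 3SA, and was past 0.5 in HDAC4 wt mice only, with 0.60.

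The IFITM proteins block virus entry at membranes. Their median CFA change was 0.78 with LacZ, 0.24 with HDAC4 wt and 0.51 with HDAC4 3SA, and their baselines had the lowest family medians over LacZ, 1.21 and 1.15. Ifitm3 was the most abundant member by mean level, with 22.4 FPKM (saline) and 31.5 FPKM (CFA) with LacZ, 96.5 and 125 FPKM with HDAC4 wt, and 77.2 and 132 FPKM with HDAC4 3SA. Ifitm1 had 4.95 FPKM (saline) and 9.59 FPKM (CFA) with LacZ, 11 and 12.6 FPKM with HDAC4 wt, and 8.87 and 13.5 FPKM with HDAC4 3SA, and its LacZ level after CFA lay above the HDAC4 3SA saline level. Ifitm2 had 7.86 FPKM (saline) and 12.1 FPKM (CFA) with LacZ, 16.9 and 20.7 FPKM with HDAC4 wt, and 15.6 and 21 FPKM with HDAC4 3SA, and 48.5% of its 50-base windows occur in other genes. Ifitm6 had 0.799 FPKM (saline) and 1.67 FPKM (CFA) with LacZ, 2.09 and 2.13 FPKM with HDAC4 wt, and 2.14 and 2.79 FPKM with HDAC4 3SA. Its CFA level was 2.09-fold the saline level with LacZ and 1.02-fold with HDAC4 wt. Of the 6 neutrophil markers with a mean of at least 0.5 FPKM, 6 were higher after CFA with LacZ (median 3.16), and they had medians of -0.93 and -0.89 with HDAC4 wt and HDAC4 3SA. The summed levels of all 9 neutrophil markers read were 11.3 and 114 FPKM with LacZ, 41.8 and 28.8 FPKM with HDAC4 wt, and 62.2 and 39.0 FPKM with HDAC4 3SA. The part of neutrophils in the IFITM values was not tested.

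The p200 proteins sense DNA. Ifi204 had 0.446 FPKM (saline) and 0.421 FPKM (CFA) with LacZ, 7.45 and 10.4 FPKM with HDAC4 wt, and 5 and 11.2 FPKM with HDAC4 3SA, with CFA changes of -0.07, 0.47 and 1.14. Ifi205 was listed at 0 FPKM in both LacZ groups, had 1.26 and 2.90 FPKM with HDAC4 wt and 1.65 and 2.06 FPKM with HDAC4 3SA, and its entry covered 7.47% of the exon bases of the gene, so no fold over LacZ is given. Among the remaining genes, Ifi44 had 0.238 FPKM (saline) and 0.354 FPKM (CFA) with LacZ, 6.42 and 9.94 FPKM with HDAC4 wt, and 5.51 and 11.1 FPKM with HDAC4 3SA. Ifi27l2a, of the ISG12 family, had 0.671 FPKM (saline) and 1.63 FPKM (CFA) with LacZ, 14.8 and 20.9 FPKM with HDAC4 wt, and 12.4 and 21.8 FPKM with HDAC4 3SA. With 0.1 FPKM added, its LacZ change of 1.16 was the largest of that vector. On plain ratios Mx1 (2.79-fold) and Oas1g (2.63-fold) exceeded its 2.43-fold. Ifi30, a lysosomal thiol reductase used in antigen processing, had 2.85 FPKM (saline) and 4.38 FPKM (CFA) with LacZ, 17.6 and 20.7 FPKM with HDAC4 wt, and 11.6 and 19.5 FPKM with HDAC4 3SA. In these 3 genes both LacZ values lay below the 4 HDAC4 values. Ifi27 had 10.9 FPKM (saline) and 12.3 FPKM (CFA) with LacZ, 31.9 and 42 FPKM with HDAC4 wt, and 29.7 and 39.4 FPKM with HDAC4 3SA, with changes below 0.5 in each vector. Ifih1, the cytosolic RNA sensor MDA5, had 0.91 FPKM (saline) and 0.896 FPKM (CFA) with LacZ, 3.62 and 4.76 FPKM with HDAC4 wt, and 2.89 and 5.19 FPKM with HDAC4 3SA. Its LacZ values were nearly equal, whereas the HDAC4 3SA change was 0.82.

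Other genes of the pathway were read from lists of receptors, ligands, signalling genes, sensors and further interferon-induced genes. Of 21 listed interferon genes, Ifng alone was read from an entry of its own, at 0.0291 to 0.309 FPKM over the 6 groups; the others were not analysed here. Of the receptor chains, Ifnar1 had 6.79 and 25.8 FPKM with LacZ, 24.3 and 11.8 FPKM with HDAC4 wt, and 39.0 and 32.1 FPKM with HDAC4 3SA, and of the 3 chains of sufficient level it alone was past 0.5 after CFA, higher with LacZ and lower with HDAC4 wt. Ifngr1 and Ifngr2, the interferon gamma receptor, stayed within 0.5 after CFA in all vectors. At baseline, 2 of these 3 chains were higher in both HDAC4 groups, Ifnar1 by 1.82 and 2.50 and Ifngr1 by 0.90 and 0.67. The shares of all genes to read these lists against are again 15.7% and 12.6% at baseline and 4.43%, 4.75% and 8.81% after CFA. Of 8 signalling genes, 4 were higher in HDAC4 wt and 2 in HDAC4 3SA than in LacZ saline mice, led by the feedback inhibitor Socs3 at log2 2.38 and 1.77. Of the kinases, Tyk2 was higher by 0.72 with HDAC4 wt and by 0.35 with HDAC4 3SA, and Jak1 and Jak2 differed from LacZ by at most 0.24. Of 14 nucleic acid sensors and adaptors, 12 and 10 were higher at baseline, and 2, 1 and 11 were higher after CFA with LacZ, HDAC4 wt and HDAC4 3SA, where the 1 gene with HDAC4 wt is near the share of all genes. Zbp1, a sensor of Z-form nucleic acid, had 0.265 FPKM with LacZ, 13.5 FPKM with HDAC4 wt and 6.4 FPKM with HDAC4 3SA after saline, and 0.619, 17.0 and 15.6 FPKM after CFA. Of 26 other interferon-induced genes of sufficient level, 24 and 23 were higher at baseline, and 4, 3 and 25 after CFA. Among these, Cxcl9, a T cell chemokine that interferon gamma induces, had 0.0501 and 0.305 FPKM with LacZ, 3.79 and 5.37 FPKM with HDAC4 wt, and 2.35 and 3.87 FPKM with HDAC4 3SA. With Ifnar1 it had the largest increase in LacZ mice. Slfn2 and Dhx58 had the largest in HDAC4 wt mice, from 10.4 to 15.2 FPKM and from 4.13 to 5.99 FPKM. Uba7, the E1 enzyme for ISG15, had the largest change with HDAC4 3SA, from 0.146 to 1.28 FPKM (log2 2.49), and went from 0.193 to 0.0877 FPKM with LacZ. Ddx60 was next in that direction with LacZ, from 0.247 to 0.202 FPKM. Besides Ifnar1, Pias1 had the largest decrease in HDAC4 wt mice, from 12.3 to 11.1 FPKM, and in HDAC4 3SA mice, from 12.1 to 10.4 FPKM, both within 0.5 on the log2 scale.

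Many members shared promoter sequence, which the choice of genes by name had not used. The names are those of interferon-induced genes, though, so a high share of ISREs was likely from the start and is no test. RefSeq promoter windows of GRCm38.p6, 250 bases before to 50 after the start site, were matched for 38 of the 50 members. The ISRE letters GAAANNGAAA, or TTTCNNTTTC on the other strand, stood in the windows of 23 members (60.5%), against 3.99% of 27025 genes and 3.74% of the 10979 genes of sufficient level. The GAS letters TTCNNNGAA, the same on both strands, stood in those of 11 members (28.9%), against 9.55% and 8.22%. The motifs overlapped in the windows of Bst2 and Ifitm3. The windows of Ifit1 and Ifit1bl2 overlap and hold the same ISRE matches, and Oas1a and Oas1g hold the same stretch, so the 23 are not all separate. A match is a string of letters in a window and not a measured binding site. Among members of sufficient level, the 22 with the ISRE letters and the 14 without had median HDAC4 wt baselines of 3.02 and 2.46, and median CFA changes with HDAC4 3SA of 0.81 and 0.84. The 11 with the GAS letters and the 25 without had median HDAC4 wt baselines of 2.34 and 3.13, lower with the letters. Their median CFA changes with HDAC4 3SA were 0.94 and 0.82. Irf7 had neither set of letters in its window. The following 50-base stretches hold the ISRE letters, in capitals, for members described above, 5′ to 3′ on the strand of the gene.
Isg15 (chr4:156200867-156200916, minus strand): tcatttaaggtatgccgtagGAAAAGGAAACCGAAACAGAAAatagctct
Irgm1 (chr11:48871421-48871470, minus strand): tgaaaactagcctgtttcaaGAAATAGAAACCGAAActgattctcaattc
Bst2 (chr8:71537573-71537622, minus strand): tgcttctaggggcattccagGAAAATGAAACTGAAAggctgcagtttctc
Ifit1 (chr19:34640765-34640814, plus strand): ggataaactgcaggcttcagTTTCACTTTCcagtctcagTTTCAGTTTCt
Ifit3 (chr19:34583353-34583402, plus strand): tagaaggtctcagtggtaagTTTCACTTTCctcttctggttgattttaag
Ifit3b (chr19:34607749-34607798, plus strand): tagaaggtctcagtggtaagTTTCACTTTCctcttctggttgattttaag
Gbp2 (chr3:142620584-142620633, plus strand): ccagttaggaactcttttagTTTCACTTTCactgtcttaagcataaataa
Rsad2 (chr12:26456543-26456592, minus strand): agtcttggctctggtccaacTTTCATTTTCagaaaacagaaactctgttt

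Isg15, Irgm1 and Bst2 hold overlapping matches, in which GAAA recurs at a spacing of 2 bases, and the stretch of Ifit1 shows 2 separate matches. Ifit3 and Ifit3b also hold 2 separate matches each in their windows, of which the stretches show the first. The stretches of Ifit3 and Ifit3b are the same, and the baselines of these genes were 10.6-fold and 6.82-fold that of LacZ in HDAC4 wt mice. Of the 11 members with GAS letters, Irf1 and Irf8 are shown, which interferon gamma is known to induce. Both were past the CFA threshold with HDAC4 3SA, whereas Irf2 and Ifitm6, which also hold GAS letters, were not.
Irf1 (chr11:53769904-53769953, plus strand): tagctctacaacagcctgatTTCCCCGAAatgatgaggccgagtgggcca
Irf8 (chr8:120736167-120736216, plus strand): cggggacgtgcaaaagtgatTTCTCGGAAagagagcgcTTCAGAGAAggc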

How the data were processed

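RNA of dorsal spinal cord from 18 mice was sequenced as strand-specific, single-end reads of 50 bases. Per the labels and the study's methods, the authors aligned the reads with TopHat and Bowtie to mm10/GRCm38 with Ensembl genes and ran Cufflinks and Cuffdiff once per vector. They deposited 1 table of 34579 entries per vector, and the deposited FPKM is 1 estimate per group over 3 mice. The tables also hold the authors' own comparison (log2 fold change, test statistic, p-value, q-value and status), which was not used. Depth per library is not in the tables.

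Entries naming 1 gene were read by identifier, 386 identifiers whose places do not overlap between tables were left out, and the entry with the highest mean was kept per name. Differences of log2(FPKM + 0.1) were computed with Python 3.11.15, pandas 2.3.3 and numpy 2.4.6, for genes whose mean over 6 groups reached 0.5 FPKM, and checked on simulated data. No test was run here, since the tables hold 1 value per group and none per mouse. Table starts were read as counted from 0 and are printed counted from 1. Shared sequence was measured as 50-base windows of GENCODE transcripts found in other genes. Genes named with values are the Irf genes, Stat2, members past 0.5 after CFA in a vector, and members of at least 5 FPKM, with ranges for others. In the pathway lists, those with the 2 largest changes in each direction per vector are named, and Ifng, Ifngr1, Ifngr2, Socs3, Jak1, Jak2, Tyk2, Jchain, Lyz2 and Fcgr1 were singled out after their values were seen. Members and lists were chosen with earlier results of these data known. Groups follow the labels. Single results of some genes are not reported here. Alternatives covered the FPKM added, the minimum, the threshold and the entry read per name.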

Additional observations from a re-analysis of the deposited data

Results flagged for a closer look

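Entries that name a member together with another gene stood outside the comparisons, since the reads cannot be assigned to either gene, and each was above its LacZ saline level in the HDAC4 wt saline group. The entry of Irf9 and Rnf31 had 17.6 FPKM in HDAC4 wt saline mice against 5.14 FPKM in LacZ saline mice. The entry of Igtp and Irgm2 had 49.4 against 4.02 FPKM, that of Gbp6 and Gm43302 had 8.21 against 0.441 FPKM, and that of Gbp4 and Gbp9 had 3.27 against 0.108 FPKM. The entry of Ifi203 and Mndal had 5.84 against 1.04 FPKM. The entry of Ifi47 and Olfr56 had 0.526 against 0.0948 FPKM. The log2 changes after CFA with LacZ, HDAC4 wt and HDAC4 3SA, in that order, were 0.12, 0.26 and 1.10 for Ifi203 and Mndal, and 0.65, 0.40 and 0.92 for Gbp6 and Gm43302. They were 0.45, 0.25 and 0.78 for Igtp and Irgm2, and 0.19, 0.25 and 0.58 for Irf9 and Rnf31. For Gbp4 and Gbp9 they were 0.81, 0.50 and 0.63, the highest being that with LacZ, where the levels were 0.108 and 0.264 FPKM. The entry of Gbp4 and Gbp9 lies at the same place as the entry read for Gbp8. For Ifi47 and Olfr56 they were -0.13, 0.02 and 0.30. No replicate check was made here for any of these values.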

How the results depend on the processing

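No paired analysis was possible because the tables hold 1 value per group and no value per mouse, and for the same reason no mouse could be left out in turn. Under 13 settings, the counts of members lower after CFA were 0 each time and say nothing about stability. Of the other 111 recomputed values, 97 moved by less than 0.1 on the log2 scale for a median, or stayed within 1.5 times for a count, 14 moved further and 0 changed direction. Adding 1 FPKM instead of 0.1 FPKM gave median saline differences of 1.80 for HDAC4 wt and 1.48 for HDAC4 3SA against LacZ, a median CFA change of 0.17 with LacZ, and 8 members higher after CFA with LacZ (1.78% of all genes). Without a minimum level the saline medians were 2.65 and 2.14, over 50 members. With the sum of all entries of a name they were 2.72 and 2.33. With the minimum applied to the mean of the groups compared, the HDAC4 3SA median was 2.35. Without the members that share over 50% of their windows (Ifit3 and Oas1a), an alternative added after seeing the data, they were 2.72 and 2.24. At a log2 difference beyond 1, members higher after CFA were 1 with LacZ (1.08% of all genes), 1 with HDAC4 wt (1.59%) and 15 with HDAC4 3SA (2.53%). Leaving out members whose entry covers under 10% of the exon bases (Gbp8 and Ifi205 among the 47), also added after seeing the data, gave 18, 15 and 36. With no FPKM added, likewise added after seeing the data, the saline medians were 2.90 and 2.40. Reading only entries in the run of the gene's own strand, added after seeing the data too, moved none of these values beyond those bounds. Depth per library is unknown, so values near 0 FPKM have no stated precision.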
